A study of Homo sapiens with 6 samples.

Results

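The 10 genes described here encode carriers that move amino acids across the plasma membrane: SLC7A11, SLC7A5, SLC3A2, SLC1A5, SLC1A4, SLC1A3, SLC38A1, SLC38A2, SLC7A1 and SLC7A6. They were chosen by symbol from the 17452 genes listed in each of 6 RNA-seq libraries, and all 10 symbols were found. The libraries came from MDA-MB-231, a human triple-negative breast cancer cell line grown in culture. In 3 of them the cells had received siRNA against PHF20L1 (siPHF20L1), and in 3 a control siRNA (siControl). PHF20L1 is a reader of methylated lysines, and the series asks which transcripts depend on it. All cells were thus transfected, and all came from the same line in L-15 medium with serum. The labels name a pair of lipid transfection reagents and do not say which served which library. They give no siRNA sequence, number of siRNAs or time of harvest, so that effects of PHF20L1 loss and of the siRNA itself on other transcripts cannot be told apart. The labels do not say that libraries of 1 group came from separate cultures. All p-values therefore measure the spread between these libraries, which may be technical.

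Cells take up amino acids mainly through exchangers, which trade one amino acid for another, and through sodium-coupled carriers, which can raise the total inside the cell. Several exchangers of the SLC7 family work only as the light chain of a pair with the glycoprotein SLC3A2, also called CD98 or 4F2hc, which carries them to the cell surface. In many cell types, shortage of amino acids or stress of the endoplasmic reticulum raises the transcription factor ATF4, which binds composite C/EBP-ATF elements and is known to raise transcription of several of these carriers. Cancer cells are known for high levels of the glutamine carrier SLC1A5, the leucine carrier SLC7A5 and the cystine carrier SLC7A11.

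Values are FPKM as deposited (fragment numbers divided by transcript length and by library depth). Levels can be compared between genes only roughly, since the transcript length used for each gene is not given. Differences are siPHF20L1 minus siControl on the log2(FPKM + 1) scale, from limma fitted on all 11560 genes that reached 1 FPKM in at least 3 libraries. "Rose" or "fell" is used for genes with a Benjamini-Hochberg adjusted p under 0.05 over all these genes. Depth, estimated from the steps between low FPKM values, was 17100000 to 17550000 fragments per library, and FPKM summed to between 395251 and 416138. PHF20L1 was at 2.67, 2.31 and 2.74 FPKM in the siPHF20L1 libraries, against 15.75, 12.48 and 12.73 FPKM in the siControl libraries, so that each library fitted its label. The libraries numbered 1 stood apart from those numbered 2 and 3 in both groups, so some differences are also given for each of these subsets. Of 8 mesenchymal markers expected of this line, 7 were above 1 FPKM in all libraries, with VIM, a mesenchymal intermediate filament, at 1010 to 1024 FPKM in siPHF20L1 and 1613 to 1644 FPKM in siControl libraries. VIM, AXL, PLAU and CAV1 fell and TGFBI rose. Of 7 markers set as low in this line, ESR1 was listed at 0 throughout, PGR stayed at or below 0.05 FPKM and CDH1 at or below 0.45 FPKM, but 4 were above 1 FPKM in all libraries. KRT8 lay at 180 to 214 FPKM in siPHF20L1 and 161 to 188 FPKM in siControl libraries, and ERBB2 at 29.60 to 31.52 and 25.81 to 25.96 FPKM. The epithelial marker EPCAM rose, at 3.54 to 5.13 FPKM in siPHF20L1 and 2.02 to 2.33 FPKM in siControl libraries (log2 difference 0.72), as did ERBB2 (0.24). The part of these marker changes in the carriers' differences was not tested. Summed leukocyte markers (PTPRC and CD3E) reached 0.97 to 1.43 FPKM in siPHF20L1 and 0.87 to 1.43 FPKM in siControl libraries, endothelial ones (PECAM1 and CDH5) at most 0.44 and 0.50 FPKM, and fibroblast ones (PDGFRA and COL1A1) 4.24 to 4.99 and 5.32 to 6.18 FPKM, nearly all from COL1A1.

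Sequences around annotated starts of the carriers are shown first, because the ATF4 element is a promoter feature that several of these genes are known to share. RefSeq windows (build GRCh38.p14, 250 bases before to 50 after an annotated start) were at hand for 9 of the 10 genes, 17 windows in all, since several genes have more than 1 start. SLC7A11 was not among them. The core TGATGNAA of the C/EBP-ATF element, searched on both strands, occurred in 6 of the 17 windows, those of 6 genes, against 3.62% of all 35116 windows. By gene, that is 6 of 9 carriers, against 2.62% of 9543 tested genes with a window. The matches follow, 5′ to 3′ on the strand that reads TGATGNAA, with the match in capitals and up to 10 bases on either side.
SLC3A2, chr11:62881726-62881748, minus strand of the genome: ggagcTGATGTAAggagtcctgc
SLC1A4, chr2:64989382-64989409, minus strand: cggctggagaTGATGCAAacgggagccg
SLC1A3, chr5:36596358-36596385, plus strand: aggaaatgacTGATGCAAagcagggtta
SLC1A5, chr19:46784894-46784921, minus strand: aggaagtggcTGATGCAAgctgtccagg
SLC7A1, chr13:29595664-29595691, minus strand: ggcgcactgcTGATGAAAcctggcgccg
SLC38A1, chr12:46266503-46266530, minus strand: cagacccgaaTGATGAAAagggatcagc
The match is spelled TGATGCAA in SLC1A4, SLC1A3 and SLC1A5, TGATGTAA in SLC3A2 and TGATGAAA in SLC7A1 and SLC38A1. Of these 6 genes, 5 rose after the knockdown and SLC38A1 did not. SLC1A3, 1 of the 5, passed the filter on low values only through the siPHF20L1 libraries, where it is high. The windows of SLC38A2, SLC7A5 and SLC7A6 held no match, and of these SLC7A5 and SLC7A6 rose, while 34.0% of all genes tested rose. A match is a string of letters and not a measured binding site, and which start these cells used was not measured.

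A pair of other motifs was searched in the same windows. TGACNNNGC, the core of the antioxidant response element bound by NRF2, was in 6 of the 17 windows, against 13.3% of all windows. By gene, that is 6 of 9 carriers, against 19.3% of 9543 tested genes with a window. These were SLC7A5, SLC3A2, SLC1A5, SLC1A3, SLC7A1 and SLC7A6. All of them rose, SLC1A3 with the limit given above, beside 34.0% of all genes tested. Among them, SLC7A5 and SLC7A6 held no ATF4 core in their windows, and sequence outside the windows was not searched. CACGTG, the E-box bound by MYC, was in 2 of the 17, against 7.26% of all windows. By gene, that is 2 of 9 carriers, SLC7A5 and SLC1A5, against 12.8% of tested genes with a window. A pair of windows with different contents is printed whole, with every match to the 3 motifs in capitals. The first, of the SLC3A2 start that carries the ATF4 core, lies at chr11:62881449-62881748 on the plus strand and holds TGACTCAGC and, read on the other strand, the ATF4 core near its end.
SLC3A2: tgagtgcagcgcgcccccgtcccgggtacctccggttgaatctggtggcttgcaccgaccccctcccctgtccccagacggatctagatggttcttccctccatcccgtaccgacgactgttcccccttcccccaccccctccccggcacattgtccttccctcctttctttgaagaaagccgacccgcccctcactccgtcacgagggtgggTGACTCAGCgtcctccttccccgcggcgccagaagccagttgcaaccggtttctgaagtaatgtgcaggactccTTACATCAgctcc
The second, of SLC7A5, lies at chr16:87869458-87869757 on the minus strand and holds the E-box and TGACGCAGC.
SLC7A5: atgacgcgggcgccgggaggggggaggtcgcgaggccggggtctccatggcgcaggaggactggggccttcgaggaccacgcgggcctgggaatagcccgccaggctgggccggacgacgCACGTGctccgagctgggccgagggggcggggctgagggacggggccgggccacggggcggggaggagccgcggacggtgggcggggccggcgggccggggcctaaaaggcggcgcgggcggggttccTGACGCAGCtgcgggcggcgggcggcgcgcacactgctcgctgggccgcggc
The motifs were chosen with earlier results of these data known, and their shares are a description.

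After PHF20L1 knockdown, 8 of the 10 carriers rose and 2, SLC38A1 and SLC38A2, did not pass the threshold, with means below those of siControl. SLC1A3, 1 of the 8, passed the filter on low values only through the siPHF20L1 libraries, where it is high. In this and the following counts it stands as a value only and not as support. Of all genes tested, 34.0% rose, 24.7% fell and 58.6% passed in either direction, so that a called rise by itself is common in these libraries. The excess of rises over falls depended on scaling: 3354 genes rose and 3495 fell with quantile normalization, and 3318 and 3540 with median-ratio size factors, where the median of all genes was -0.02 in either case. All 10 carriers passed the filter on low values. The median log2 difference was 0.44 over the 10 carriers, beside 0.05 over all genes tested. The groups were apart, with all siPHF20L1 libraries above all siControl libraries, in the same 8 carriers, against 36.7% of all genes tested. Summed over the 10 genes, carrier transcripts came to 716, 773 and 779 FPKM in siPHF20L1 libraries, against 539, 556 and 558 FPKM in siControl libraries. The ratio of the group means was 1.37. In such bulk libraries, a change in the share of cells with a transcript and a change in its level per cell cannot be told apart.

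**Figure D1:**
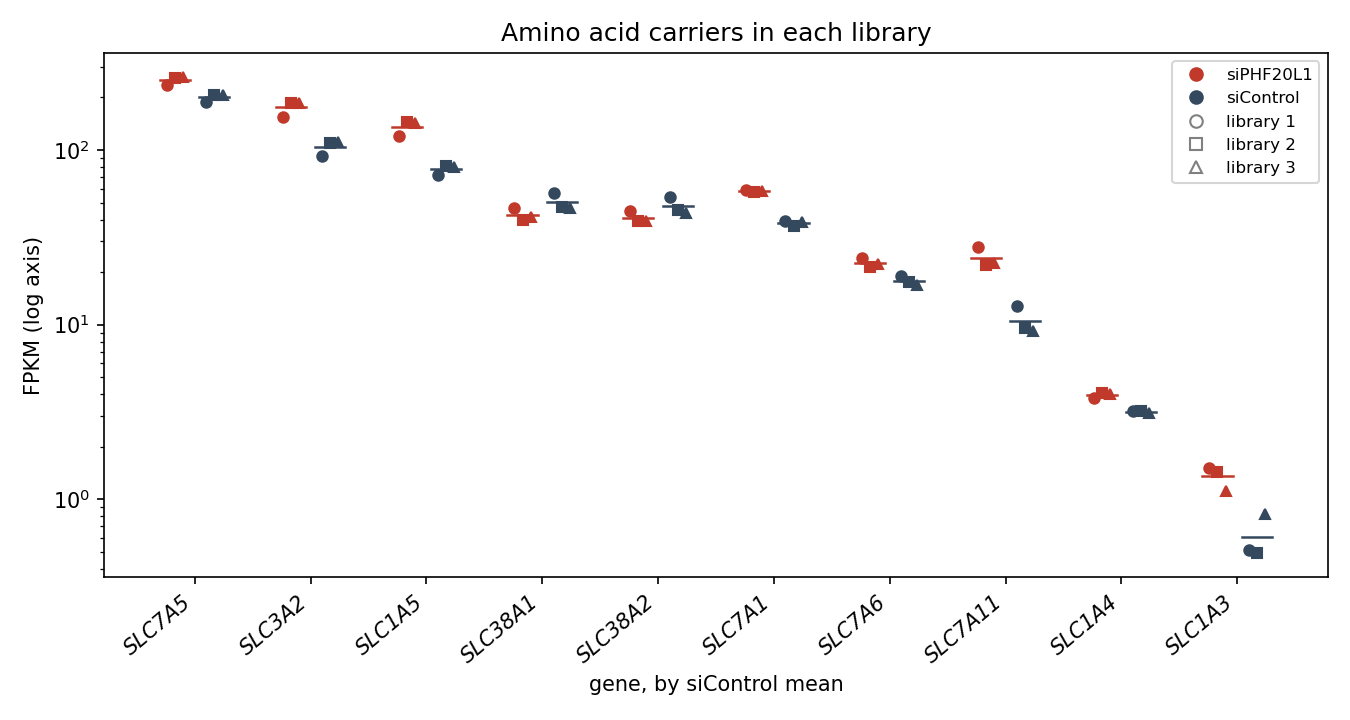
FPKM (log axis) of each carrier in the 3 siPHF20L1 libraries (red, left) and the 3 siControl libraries (dark, right), 1 point per library, with a bar at the group mean. In 8 genes every siPHF20L1 point lies above every siControl point, and in SLC38A1 and SLC38A2 the siPHF20L1 means, 42.5 and 41.0 FPKM, lie below the siControl means, 50.2 and 47.5 FPKM.

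Among the SLC7 light chains, SLC7A11 had the largest change. SLC7A11 (Entrez 23657), also called xCT, exports glutamate and brings in cystine, the precursor of cysteine for glutathione. It was at 27.73, 21.96 and 22.67 FPKM in siPHF20L1 libraries, against 12.76, 9.52 and 9.24 FPKM in siControl libraries. The lowest siPHF20L1 library was thus well above the highest siControl library, and in both groups the library numbered 1 was the highest. The mean was 2.30-fold that of siControl (24.1 ± 3.15 against 10.5 ± 1.96 FPKM, SD, n = 3 each), with a log2 difference of 1.13 (SE 0.13, limma, adjusted p = 0.000112). It was 1.06 within the number 1 and 1.17 within the numbers 2 and 3. At a pseudocount of 1, SLC7A11 was the only carrier past a log2 difference of 1 (with 0.1, SLC1A3 was too), which 3.34% of all genes tested reached in this direction. SLC7A11-AS1 overlaps the gene on the opposite strand, and whether counting used strand is not known, so that its values are uncertain to that extent. The same holds for SLC7A5, SLC1A5, SLC1A3 and SLC38A2, whose spans are also overlapped on the opposite strand.

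SLC7A5 (Entrez 8140), or LAT1, exchanges leucine and other large neutral amino acids and was the most abundant carrier in both groups. It was at 234.79, 257.16 and 262.57 FPKM in siPHF20L1 libraries, against 189.51, 205.72 and 207.33 FPKM in siControl libraries. The groups were apart, but the change was small, 1.25-fold in the mean, with a log2 difference of 0.32 (SE 0.07, limma, adjusted p = 0.00289). The genome holds partial copies closely related to SLC7A5, so that its value is uncertain where reads were shared with them.

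SLC7A6 (Entrez 9057), or y+LAT2, trades cationic for neutral amino acids. It was at 23.96, 21.37 and 22.21 FPKM in siPHF20L1 libraries and at 18.92, 17.52 and 16.84 FPKM in siControl libraries. Every siPHF20L1 library was above every siControl library, with a log2 difference of 0.33 (SE 0.07, limma, adjusted p = 0.00360). SLC7A6OS, which overlaps it on the opposite strand, was at 15.70 to 18.55 FPKM in siPHF20L1 and 13.14 to 15.93 FPKM in siControl libraries. It rose too (log2 difference 0.24, limma, adjusted p = 0.0470), though its groups overlapped. Whether counting used strand is not known, so that the values of SLC7A6 are uncertain to that extent.

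SLC3A2 (Entrez 6520), the heavy chain that these 3 light chains share, was at 153.98, 186.69 and 185.25 FPKM in siPHF20L1 libraries, against 92.85, 109.16 and 111.57 FPKM in siControl libraries. The groups were far apart, and the library numbered 1 was the lowest of each. The mean was 1.68-fold that of siControl (log2 difference 0.74, SE 0.10, limma, adjusted p = 0.000251).

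SLC3A2 rose 1.68-fold and SLC7A5 1.25-fold, and the ratio between these partner transcripts was lower after the knockdown. There were 1.52, 1.38 and 1.42 SLC7A5 per SLC3A2 transcript by FPKM in siPHF20L1 libraries, against 2.04, 1.88 and 1.86 in siControl libraries. These ranges did not overlap. SLC7A6 per SLC3A2 was also lower in each siPHF20L1 library than in the siControl library of the same number, though the ranges of 0.114 to 0.156 in siPHF20L1 and 0.151 to 0.204 in siControl libraries overlapped. SLC7A11 per SLC3A2 was higher in each such pair, 0.180, 0.118 and 0.122 in siPHF20L1 against 0.137, 0.087 and 0.083 in siControl libraries, again with overlapping ranges. The share of SLC7A11 in the summed light chains was 9.68%, 7.31% and 7.37% in siPHF20L1 libraries, against 5.77%, 4.09% and 3.96% in siControl libraries. All light chains together stood at 1.61 to 1.86 per SLC3A2 transcript in siPHF20L1 and 2.09 to 2.38 in siControl libraries. These are ratios of transcripts, with no test. A single scaling factor per library leaves them unchanged, which does not hold for quantile normalization.

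**Figure D2:**
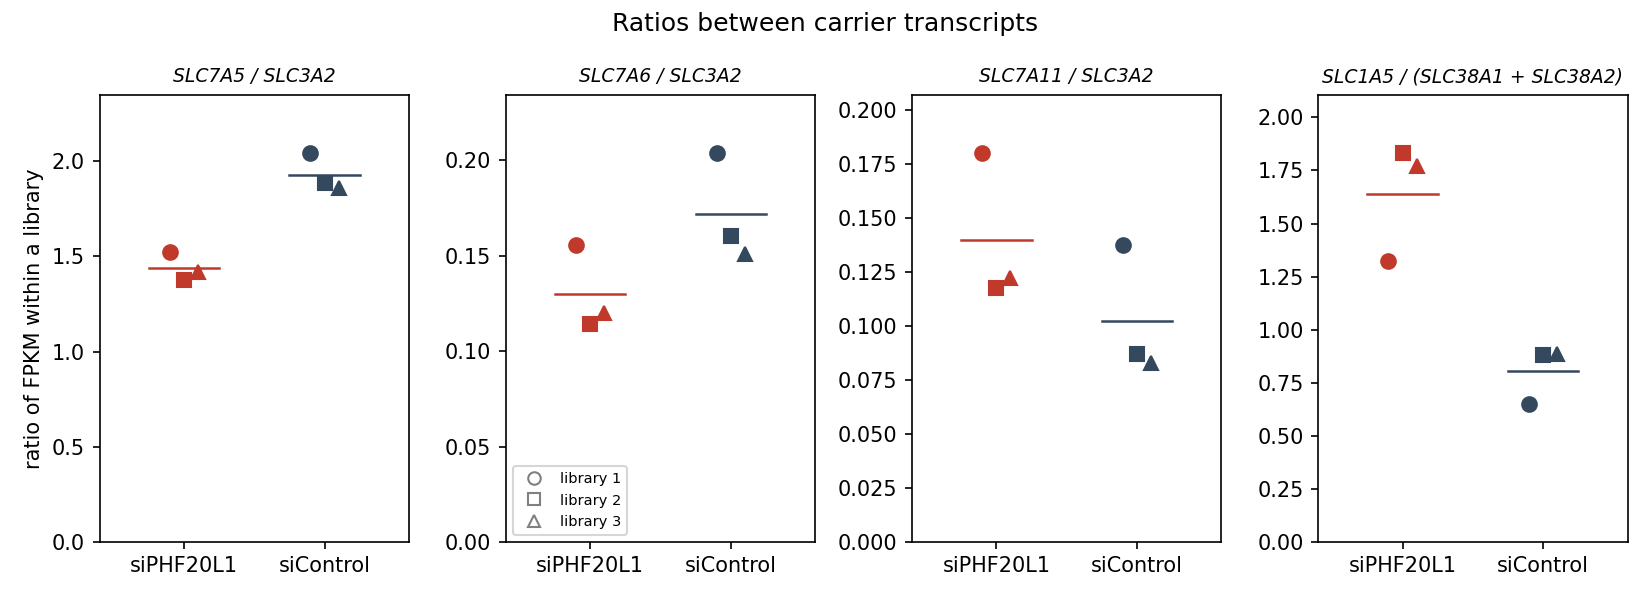
Ratios of FPKM within each library for siPHF20L1 (red, left) and siControl (dark, right), 1 point per library, with a bar at the group mean and axes from 0. SLC7A5 per SLC3A2 is lower in all siPHF20L1 libraries, SLC1A5 per summed SLC38A1 and SLC38A2 is higher in all of them, and the library numbered 1 lies off the others in both groups.

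Among the carriers of glutamine and small neutral amino acids, SLC1A5 and SLC1A4 rose, and SLC38A1 and SLC38A2 did not pass. SLC1A5 (Entrez 6510), or ASCT2, an exchanger that brings in glutamine, was at 120.48, 144.57 and 142.32 FPKM in siPHF20L1 libraries, against 71.81, 81.48 and 80.10 FPKM in siControl libraries. The lowest siPHF20L1 library was again well above the highest siControl library. The mean was 1.75-fold that of siControl (log2 difference 0.79, SE 0.08, limma, adjusted p = 7.46e-05).

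SLC38A1 (Entrez 81539), or SNAT1, a sodium-coupled importer of glutamine and alanine, was at 46.46, 39.53 and 41.41 FPKM in siPHF20L1 libraries and at 56.63, 47.23 and 46.64 FPKM in siControl libraries. The highest siPHF20L1 library lay just under the lowest siControl library. The log2 difference of -0.23 (SE 0.09) did not pass (limma, adjusted p = 0.0534). SLC38A2 (Entrez 54407), or SNAT2, of the same kind and known to be induced when amino acids are short, was at 44.51, 39.43 and 39.04 FPKM in siPHF20L1 libraries and at 53.56, 45.46 and 43.60 FPKM in siControl libraries. Its groups overlapped, and its log2 difference of -0.21 (SE 0.09) did not pass either (limma, adjusted p = 0.0728).

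Both SLC38 genes were high in the libraries numbered 1 of either group. With the replicate number as a block, both were lower (limma, adjusted p = 0.000144 for SLC38A1 and 0.000320 for SLC38A2), in a fit that called 33.3% of all genes lower and 42.8% higher. Each passed in 6 of 16 alternatives, with adjusted p of limma between 0.000144 and 0.163 for SLC38A1 and between 0.000320 and 0.203 for SLC38A2, among them the fits without siControl replicate 3 and without siPHF20L1 replicate 1. Without the block, groups were apart with siPHF20L1 below in SLC38A1 and in 27.0% of all genes tested. The ratio of SLC38A1 to SLC38A2 was 1.00 to 1.06 in siPHF20L1 and 1.04 to 1.07 in siControl libraries. SLC1A5 per summed SLC38A1 and SLC38A2 was 1.32, 1.83 and 1.77 in siPHF20L1 libraries, against 0.652, 0.879 and 0.888 in siControl libraries, a ratio of means of 2.04 with no overlap.

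SLC1A4 (Entrez 6509), or ASCT1, an exchanger of alanine, serine, cysteine and threonine, was far less abundant than its relative SLC1A5. It was at 3.80, 4.04 and 4.02 FPKM in siPHF20L1 libraries, against 3.21, 3.19 and 3.13 FPKM in siControl libraries. The groups were apart by a small margin (log2 difference 0.25, SE 0.07, limma, adjusted p = 0.0129). This call was lost in 4 of its 15 alternatives, over which the adjusted p of limma spanned 0.00441 to 0.1201. These were quantile normalization (adjusted p = 0.117), the average of the libraries numbered 2 and 3 (0.1201), and the fits that left out siPHF20L1 replicate 2 (0.0515) or siPHF20L1 replicate 3 (0.0523).

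SLC1A3 (Entrez 6507), or EAAT1, the sodium-coupled glutamate and aspartate carrier known from glia, was the least abundant of the 10. It was at 1.52, 1.43 and 1.11 FPKM in siPHF20L1 libraries, against 0.51, 0.49 and 0.82 FPKM in siControl libraries. It reached 1 FPKM only in the siPHF20L1 libraries and so entered the test through that group. Its log2 difference was 0.55 (SE 0.11, limma, adjusted p = 0.00239). The values rest on few reads, about 71 to 108 fragments per siPHF20L1 library and 31 to 59 per siControl library by the estimated depth. The mean was 2.23-fold that of siControl. The log2 difference was 1.06 with a pseudocount of 0.1 in place of 1, and 0.36 with quantile normalization.

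SLC7A1 (Entrez 6541), or CAT1, which brings in arginine and lysine and needs no heavy chain, had the smallest spread between libraries relative to its change. It was at 59.13, 57.28 and 58.10 FPKM in siPHF20L1 libraries, against 39.46, 36.60 and 38.69 FPKM in siControl libraries. The groups were far apart (mean 1.52-fold, log2 difference 0.59, SE 0.05, limma, adjusted p = 3.06e-05).

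**Figure D3:**
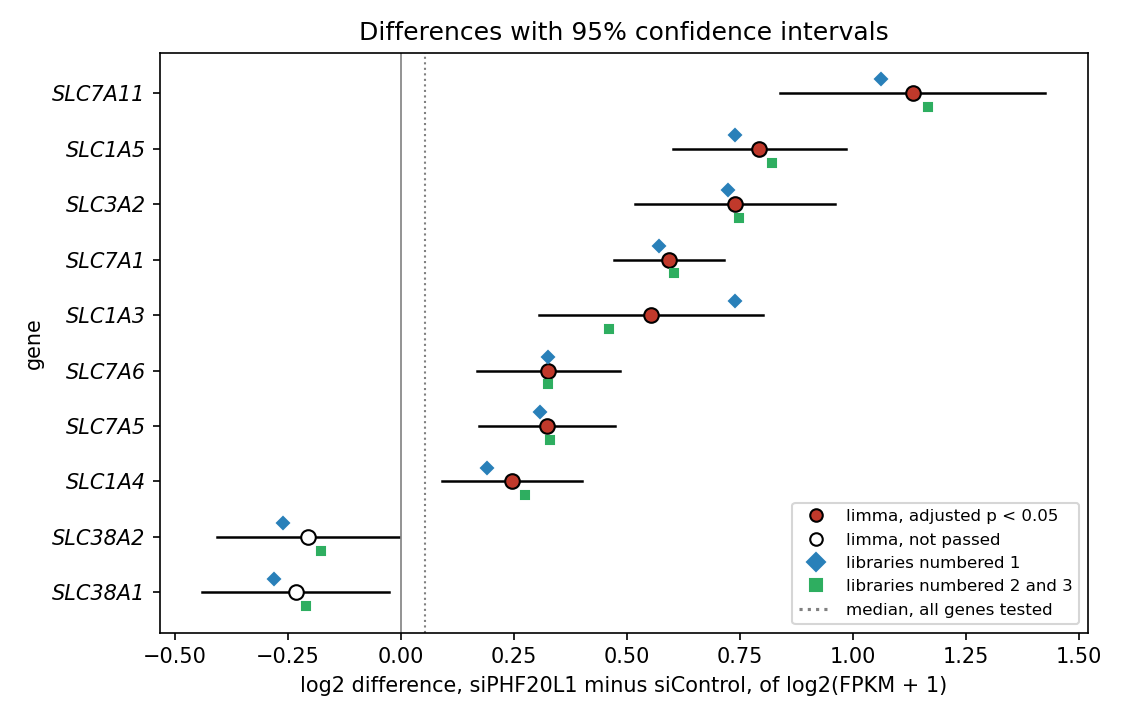
Log2 difference of each carrier, siPHF20L1 minus siControl, with its unadjusted 95% confidence interval (limma), beside the differences within the libraries numbered 1 and within those numbered 2 and 3. All 10 genes have the same sign within both, from 1.13 for SLC7A11 down to -0.23 for SLC38A1, and the dotted line is the median of all genes tested, 0.05.

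The order of levels changed in a pair of places. By mean FPKM, the siPHF20L1 libraries ran SLC7A5, SLC3A2, SLC1A5, SLC7A1, SLC38A1, SLC38A2, SLC7A11, SLC7A6, SLC1A4 and SLC1A3. The siControl libraries ran SLC7A5, SLC3A2, SLC1A5, SLC38A1, SLC38A2, SLC7A1, SLC7A6, SLC7A11, SLC1A4 and SLC1A3. SLC7A1 thus stood above both SLC38 genes after the knockdown and below both in siControl. SLC7A11 stood below SLC7A6 in siControl, with ranges apart, and overlapped it after the knockdown (21.96 to 27.73 against 21.37 to 23.96 FPKM). SLC38A1 and SLC38A2 overlapped in either group, and all other neighbours had ranges apart.

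Over all genes tested, deviations from group means correlated by 0.73 between the libraries numbered 1, so that shared deviations were not particular to the carriers. In 8 of the 10 carriers the library numbered 1 deviated the same way in both groups, the exceptions being SLC1A4 and SLC1A3. It was above the others in SLC7A11 (log2 difference 0.30 in siPHF20L1 and 0.41 in siControl) and below them in SLC3A2 (-0.27 and -0.25). The differences between groups within the number 1 and within the numbers 2 and 3 stayed close, 0.72 and 0.75 for SLC3A2 and 0.74 and 0.82 for SLC1A5. They were farthest apart for SLC1A3, 0.74 and 0.46.

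An earlier look at these libraries (not shown) picked the 3′ UTR words CAAGAT and TAAGGA because genes with them were lower on average. The longest annotated 3′ UTRs (GENCODE 29) of 8 of the 10 carriers hold at least 1 of them, all but SLC3A2 and SLC1A4, beside 54.4% of 11428 genes tested with a 3′ UTR of 50 nt or more. Of the 8 carriers with a word, 6 rose, beside 34.0% of all genes tested, and the share among all genes with a word was not computed. The 6 include SLC1A3, which passed the filter on low values only through the siPHF20L1 libraries. SLC38A1, in 5907 nt, holds CAAGAT 2 times and TAAGGA 5 times, the most of the 10, and SLC38A2 holds CAAGAT 2 times in 3768 nt. SLC7A11, which rose most, holds 3 in all in 7859 nt. The words were picked on these same data, longer UTRs hold more of them by length alone, and their part in these values was not tested.

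The lists that follow are to be read against all genes tested, of which 34.0% rose and 24.7% fell. Most other carriers of the plasma membrane were too low in this line to be tested. Of 31 further genes listed, 28 were found, 8 passed the filter on low values, and 3 of these rose and 3 fell, with a median log2 difference of 0.06. The taurine carrier SLC6A6 rose to 62.15 to 68.47 FPKM in siPHF20L1 libraries, against 42.89 to 48.89 FPKM in siControl libraries. SLC38A4, a relative of SLC38A2, rose (log2 difference 0.58), as did the cationic carrier SLC7A2 (0.29). The glutamate carrier SLC1A1 fell to 1.05 to 1.45 FPKM, against 1.91 to 2.48 FPKM in siControl libraries. The glycine carrier SLC6A9 (-0.45) and the leucine carrier SLC43A2 (-0.33) fell. Over the 49 genes of this and the following lists that are named by rule, the highest adjusted p of limma was 0.0339.

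Carriers of lysosomes and other inner membranes had 7 of 12 tested genes higher and 2 lower (median 0.29). SLC38A7, which lets glutamine out of lysosomes, rose to 22.05 to 22.37 FPKM in siPHF20L1 libraries, against 7.38 to 8.27 FPKM in siControl libraries. PQLC2, the lysosomal exporter of cationic amino acids, rose by a log2 difference of 0.97, and CTNS, the cystine exporter lost in cystinosis, by 0.81. SLC36A4 fell to 1.68 to 2.07 FPKM, against 6.96 to 8.28 FPKM in siControl libraries, and the histidine and peptide carrier SLC15A4 fell (-0.38). This list also holds SLC29A3, which carries nucleosides. Of the mitochondrial amino acid carriers, 7 of 12 tested rose and 2 fell (median 0.24). The aspartate-glutamate carrier SLC25A13 rose to 21.54 to 22.79 FPKM, against 10.39 to 10.85 FPKM in siControl libraries. The glutamate carrier SLC25A22 (0.52) and the glycine carrier SLC25A38 (0.45) also rose, while the basic amino acid carrier SLC25A29 (-0.72) and the serine carrier SFXN1 (-0.24) fell.

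Of 32 genes of amino acid sensing by mTORC1, 14 rose and 10 fell (median 0.11), shares of 43.8% and 31.2% beside 34.0% and 24.7% over all genes tested. RRAGD, a Rag GTPase, FNIP2, a partner of folliculin, and SESN2, a leucine sensor, rose by 0.84, 0.83 and 0.82. LAMTOR5, a subunit of the Ragulator, fell to 19.30 to 19.50 FPKM, against 48.89 to 53.42 FPKM in siControl libraries, and SESN3 (-0.76) and the GATOR2 subunit gene SEH1L (-0.71) fell. In the GCN2 and ATF4 arm, 9 of 17 tested rose and 3 fell (median 0.18). NUPR1 (1.82), the pseudokinase gene TRIB3 (1.62) and DDIT3, which encodes CHOP (1.59), rose, while CHAC1, which encodes an enzyme that degrades glutathione (-0.64), EIF2S1, which encodes the subunit phosphorylated by GCN2 (-0.64), and GCN1 (-0.27) fell. PSAT1, a serine synthesis gene of this list, did not pass (0.13), while the asparagine synthesis gene ASNS rose (0.43). Values of several of these genes were known when the list was drawn up, so its counts are no independent support.

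**Figure D4:**
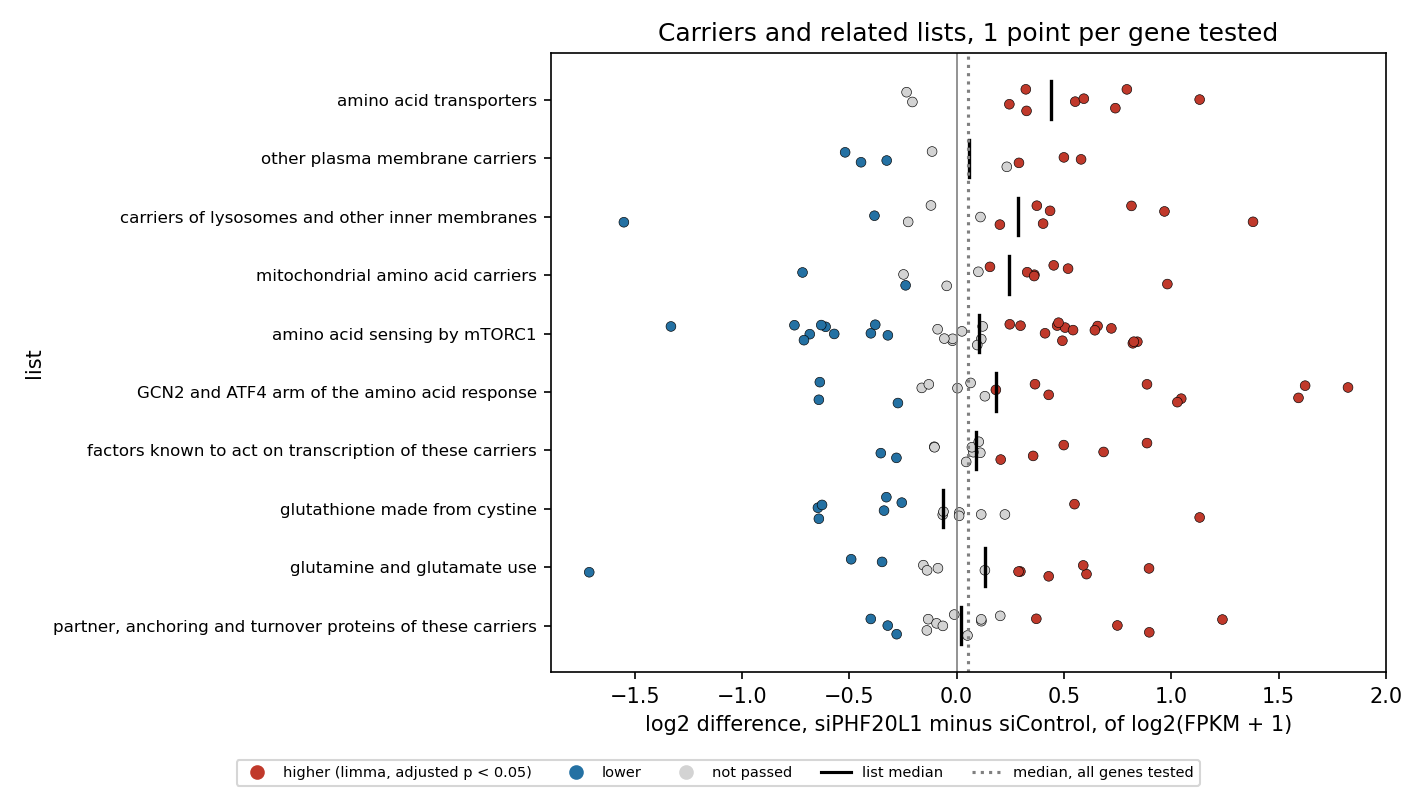
Log2 difference, siPHF20L1 minus siControl, of every tested gene of the 10 carriers and of 9 related lists, 1 point per gene, red where higher and blue where lower at an adjusted p under 0.05 (limma). Black bars are list medians, from 0.44 for the 10 carriers to -0.06 for the glutathione list, and the dotted line is the median of all genes tested, 0.05.

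Among 14 tested factors known to act on transcription of such carriers, 5 rose and 2 fell (median 0.09). ATF4 rose to 211.96 to 221.59 FPKM in siPHF20L1 libraries, against 109.91 to 122.07 FPKM in siControl libraries. E2F1 (0.68) and EPAS1, which encodes HIF-2α (0.50), rose as well. NFE2L2, which encodes NRF2, fell to 49.40 to 55.02 FPKM, against 58.91 to 65.77 FPKM in siControl libraries, and HIF1A fell by 0.35 on the log2 scale.

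Of 14 tested genes in the list on glutathione made from cystine, SLC7A11 and CTH, the cystathionine lyase that makes cysteine (0.55), rose, 6 fell and 6 did not pass (median -0.06). GCLC and GSS, which encode enzymes of glutathione synthesis, were among those that did not pass, both with a log2 difference of 0.01. The 6 that fell also include CHAC1 and GGCT, which act in glutathione breakdown, and the oxidative stress genes HMOX1 and NQO1. GCLM, the modifier subunit of the first enzyme of glutathione synthesis, fell to 12.36 to 13.06 FPKM, against 19.07 to 22.41 FPKM in siControl libraries. The heme oxygenase gene HMOX1 (-0.63) and the quinone reductase gene NQO1 (-0.34), known like SLC7A11 as targets of NRF2, also fell.

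Of 13 tested genes of glutamine and glutamate use, 6 rose and 3 fell (median 0.13). PPAT, which spends glutamine in the first step of purine synthesis, fell to 2.97 to 3.26 FPKM in siPHF20L1 libraries, against 11.94 to 13.70 FPKM in siControl libraries. GLUD1, the glutamate dehydrogenase (-0.49), and the aspartate aminotransferase gene GOT1 (-0.35) fell. The alanine aminotransferase gene GPT2 (0.90), the hexosamine enzyme gene GFPT1 (0.61) and the proline synthesis gene PYCR1 (0.59) rose. Of 16 partner, anchoring and turnover genes of these carriers, 4 rose and 3 fell (median 0.02). ITGB3, an integrin subunit (1.24), the arrestin relative TXNIP (0.90) and the kinase gene SGK1 (0.75) rose. SGK3 (-0.40), the deubiquitinase gene OTUB1, whose product is known to stabilise the SLC7A11 protein (-0.32), and SLC9A3R1 (-0.28) fell. CD44, which is known to stabilise SLC7A11 at the membrane, was at 137.95 to 141.49 FPKM in siPHF20L1 and 137.44 to 142.66 FPKM in siControl libraries.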

How the data were processed

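RNA-seq of 3 siPHF20L1 and 3 siControl libraries of MDA-MB-231 was analysed from the authors' tables. Per the file headers, the deposited values are FPKM, 1 per gene and library; how they were computed and whether counting used strand is not given in the sources used here. Poly-A RNA and a stranded kit were used, per the labels' protocols. The submitters' processing notes name GRCh37, Bowtie 0.12.2, TopHat2 2.1.1 and HTSeq 0.6.0. Groups and replicate numbers come from sample titles. For 26 genes listed under a date, the symbol came from the reference table. Depth came from steps of FPKM times length in genes under 0.5 FPKM; a multiple of the step would fit too.

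limma 3.58.1 (R 4.3.3) was fitted on log2(FPKM + 1) with an intensity trend and no block, over 11560 genes with at least 1 FPKM in at least 3 libraries, two-sided, with Benjamini-Hochberg adjustment and a threshold of 0.05. The script was tested on simulated data. Deviations from group means correlated by 0.73, 0.44 and 0.42 in same-numbered libraries, which paired the numbers; siControl 3 with siPHF20L1 2 gave 0.49, so that the check sets number 1 apart and does not separate 2 from 3.

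Fitted were 16 alternatives of pseudocount, filter, scaling, block, trend and libraries. Most genes outside the 10 were named by a rule. It took the 3 largest rises and falls past the threshold in each list, leaving out genes already named. CD44, SLC7A6OS, VIM and other markers were named for their values or position. PSAT1, ASNS, GCLC, GSS, GGCT and SLC29A3 were also named outside the rule. The members and lists were chosen with earlier results of these data known. Promoter windows are RefSeq's and 3′ UTRs GENCODE 29's. Their build differs from that of the files, so that coordinates are given only for promoter windows and matches, on GRCh38.p14.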

Additional observations from a re-analysis of the deposited data

How the results depend on the processing

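Every carrier kept its direction in all fits, and SLC7A11, SLC7A5, SLC3A2, SLC1A5, SLC7A1 and SLC7A6 passed in all 16 alternatives. SLC1A3 and SLC1A4 were removed by the stricter filter of 5 FPKM. SLC1A3 had passed the filter only through the siPHF20L1 libraries, where it is high, so its log2 differences of 0.36 to 1.06 are given as values only. The count of lower carriers was 2 in place of 0 with quantile normalization, median-ratio size factors, the replicate block and the libraries numbered 2 and 3 alone. These were SLC38A1 (log2 differences -0.28, -0.31, -0.23 and -0.21) and SLC38A2 (-0.25, -0.28, -0.21 and -0.18). Leaving out 1 library gave 0 to 2 lower carriers, reaching 2 without siControl replicate 3 or siPHF20L1 replicate 1, and -0.30 to -0.14 for SLC38A1, -0.27 to -0.12 for SLC38A2 and 0.23 to 0.27 for SLC1A4. SLC1A4 did not pass at 0.14 with quantile normalization and at 0.23 with the libraries numbered 2 and 3 averaged. The replicate block changed no other call among the carriers. The ratio of summed carrier FPKM was 1.30 with median-ratio size factors, an alternative chosen after seeing the data, and 1.35 to 1.41 with 1 library left out. Counts of all genes stayed within 1.5 times the main ones, but falls outnumbered rises with quantile normalization and median-ratio size factors. The causes of these shifts were not tested. Depth limits SLC1A3 most; FPKM give no counts, so that no counting intervals are printed.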
